A study of Homo sapiens with 12 samples.

Results

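The genes described here are 10 transcripts linked to the tumour suppressor p53 and to cell stress: CDKN1A, MDM2, GADD45A, GADD45B, BTG2, TP53INP1, BBC3, PMAIP1, FAS and TNFRSF10B. They were taken by gene symbol from 22257 genes, with 1 transcript standing for each gene. All 10 were found and all 10 passed the filter on low counts, with at least 48 reads in every library. The RNA came from LN229, a long-established cell line made from a human glioblastoma. The 12 libraries fall into 3 groups of 4 replicates. All cells reached 80% confluence before 24 hours in RPMI medium with 10% dialyzed fetal bovine serum, from which small molecules such as glucose have been removed. The groups differ in what that medium supplied: glucose at 1 mM, the same glucose plus acetate at 5 mM, or glucose at 10 mM. Each group is RNA of many cells together, so fewer cells that express a gene and less RNA per cell cannot be told apart.

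p53 is a transcription factor that is held at a low level by the ubiquitin ligase MDM2 and is released by DNA damage and other stress. Its targets stop the cell cycle, remove growth signals or start cell death, and MDM2 itself is a target, which closes a feedback loop. Many of these genes are also known to be induced without p53, among other routes by the factors ATF4 and CHOP (the product of DDIT3) when the endoplasmic reticulum is stressed or nutrients run short. RNA levels alone do not show which factor acted on a gene.

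The start sites of 7 of the 10 members, namely CDKN1A, MDM2, GADD45B, BTG2, BBC3, PMAIP1 and FAS, were matched by symbol to a RefSeq table of promoters (build GRCh38.p14). Between them they had 12 windows of 250 bases before a start, out of 35116 in the table. The stretches below are the parts of 5 windows outside annotated exons, written 5′ to 3′ along the gene. They were picked with the values known: MDM2 carries a p53 element beside a start and was called in no comparison, and the other 4 genes were lower at 10 mM glucose. BTG2, also lower, had a window without that element and is not printed. Whether these stretches bear on the values was not tested. Capitals mark every match, on either strand, to TGATGNAA (the composite site of ATF4 and C/EBP factors), TGACGT (the core of CREB and ATF sites), TGANTCA (AP-1), CACGTG (the E-box of MYC and related factors), GGGCGG (Sp1), CCAAT, or a p53 response element. That element was scored as 2 adjoining decamers of the p53 consensus with at most 1 mismatch in each. No matches in the printed stretches overlap one another.
MDM2, inner start, chr12:68808767-68809001, plus strand: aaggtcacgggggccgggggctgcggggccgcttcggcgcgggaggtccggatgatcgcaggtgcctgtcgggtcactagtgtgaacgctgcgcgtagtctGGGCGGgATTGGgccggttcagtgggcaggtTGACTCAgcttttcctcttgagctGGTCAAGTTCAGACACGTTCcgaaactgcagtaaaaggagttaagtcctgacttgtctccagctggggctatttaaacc
CDKN1A, chr6:36678560-36678657, plus strand: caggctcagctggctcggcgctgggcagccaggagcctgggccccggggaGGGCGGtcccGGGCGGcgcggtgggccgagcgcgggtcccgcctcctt
GADD45B, chr19:2475877-2476121, plus strand: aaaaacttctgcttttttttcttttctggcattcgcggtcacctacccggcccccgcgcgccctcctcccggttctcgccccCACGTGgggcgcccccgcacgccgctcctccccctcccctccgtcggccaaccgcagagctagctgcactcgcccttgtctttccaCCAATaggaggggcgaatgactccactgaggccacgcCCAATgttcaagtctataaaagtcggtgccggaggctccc
BBC3, chr19:47232767-47232917, minus strand: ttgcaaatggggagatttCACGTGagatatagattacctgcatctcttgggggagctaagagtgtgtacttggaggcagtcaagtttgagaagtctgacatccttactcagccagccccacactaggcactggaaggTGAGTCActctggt
PMAIP1, chr18:59899746-59899947, plus strand: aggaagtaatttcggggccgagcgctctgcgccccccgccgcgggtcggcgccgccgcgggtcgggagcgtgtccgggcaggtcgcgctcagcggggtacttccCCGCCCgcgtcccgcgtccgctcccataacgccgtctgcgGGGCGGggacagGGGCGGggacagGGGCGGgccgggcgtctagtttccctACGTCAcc

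The p53 element in the MDM2 stretch begins 94 bases before the inner start, and 0.339% of all windows held such an element. None was found in the windows of the other 6 matched members. GGGCGG had 4 matches each in the CDKN1A and PMAIP1 windows, of which 2 and 4 are in the printed stretches, and stood in 42.6% of all windows; BTG2, FAS and MDM2 windows held it too. PMAIP1 had 1 match to TGACGT, beginning 56 bases before its start (7.1% of all windows). CACGTG was matched once in GADD45B and once in BBC3 (6.34% of all windows), and TGANTCA once each in the BBC3 window, a FAS window and both inner MDM2 windows (6.57%). CCAAT had 2 matches in GADD45B and was also held by windows of MDM2, BTG2 and BBC3 (32%), and TGATGNAA (3.14%) had none in any of the 12 windows. These are matches of letters and do not show binding. The well-known p53 sites of CDKN1A lie farther upstream than these windows reach, and bases outside the windows were not searched for any gene.

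Summed counts lay between 24.4 M and 27.2 M (M for mega), so depth was nearly even. Levels are in CPM, counts per megacount after TMM scaling. In several libraries a gene's deviation from its group mean went with transcript length over 11093 genes. The Spearman correlation was most negative in acetate replicate 1 (−0.743) and 1 mM replicate 3 (−0.679), and most positive in 1 mM replicate 2 (0.656), acetate replicate 4 (0.64) and acetate replicate 3 (0.564). The deviations of a group are taken from its own mean, so a library that falls with length leaves others that rise with it. Of the 8 glial and glioma markers tested, 4 were called higher at 10 mM than at 1 mM glucose and 3 lower. Over all genes 33.7% were called higher and 33.8% lower. SOX2 rose from a mean of 14.3 to 75.4 CPM, NES from 452 to 1053, S100B from 86.6 to 186 and SLC1A3 from 5.1 to 12.2. The intermediate filament gene VIM fell from 5249 to 3768 CPM, CD44 from 1049 to 759 and OLIG2 from 24.9 to 8.47. GFAP, the astrocyte filament, stayed between group means of 0.848 and 1.14 CPM and was not called. Among markers of other cells, the neuronal STMN2 and the globin HBB were at 0 in every library. Of the 4 neuron markers tested, SYT1 fell from a mean of 114 CPM at 1 mM to 26.6 CPM at 10 mM glucose, SNAP25 rose from 8.95 to 16.5 CPM, and MAP2 and GAD1 were not called. Of the 2 blood and endothelial markers tested, CD68 fell from 58.5 to 20.4 CPM and VWF rose from 0.302 to 0.873 CPM. The summed level of the 8 neuron markers was 178 to 230 CPM at 1 mM, 177 to 199 CPM with acetate and 131 to 143 CPM at 10 mM. For the 9 blood and endothelial markers the sums were 54.7 to 65 CPM, 63 to 70.2 CPM and 19 to 23.1 CPM. The part of these markers in the results below was not tested.

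High glucose set the members apart from one another. At 10 mM glucose 7 of the 10 genes were lower than at 1 mM, 1 was higher and 2 did not pass the test. The growth-arrest genes GADD45A and GADD45B, the death genes PMAIP1 and BBC3 and the death receptor TNFRSF10B fell most, between 2.99-fold and 7.23-fold. CDKN1A fell 1.76-fold and BTG2 1.21-fold, FAS rose 1.15-fold, and MDM2 and TP53INP1 were not called. Genes were called at an edgeR adjusted p under 0.05. Over all 14416 genes tested, 67.5% were called in this comparison, 33.8% lower and 33.7% higher, so a count of 8 called members is not far from the background. The groups did not overlap for the same 8 genes, 7 lower and 1 higher, against 61.5% of all genes, 30.3% lower and 31.1% higher. The size of the changes differed more: 5 of 10 members fell at least 2-fold, against 6.81% of all genes. The median log2 fold change was −1.20 for the members and 0.0011 for all genes. The members were chosen with earlier results of these data known. Their contrasts with all genes, here and in the comparisons below, are therefore not independent of that choice.

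Acetate at 1 mM glucose lowered 7 of the same 10 genes and raised none. All of these but BTG2 fell by less than they did with high glucose. The number called ran from 5 to 8 with single libraries left out. The call of TNFRSF10B was lost in 15 of 23 alternatives and that of BBC3 in 3 of 22. GADD45B fell 1.92-fold, BTG2 1.48-fold, CDKN1A 1.41-fold and BBC3 1.39-fold, and GADD45A, PMAIP1 and TNFRSF10B fell by 1.13-fold to 1.24-fold. Over all genes 13.7% were called, 7.09% lower and 6.65% higher. The groups did not overlap for 6 members, all lower, against 15.6% of all genes, 8.2% lower and 7.35% higher. No member fell 2-fold, as 0.479% of all genes did. The median log2 fold change was −0.35 for the members and 0.0020 for all genes. The 1 mM libraries serve as controls in both comparisons, so these lists of genes are not independent. Scaling by library totals instead of TMM moved the median over all genes to 0.14 for glucose and to 0.04 for acetate. The share of calls that were higher then went from 49.9% to 63.3% for glucose and from 48.4% to 65.2% for acetate.

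**Figure D1:**
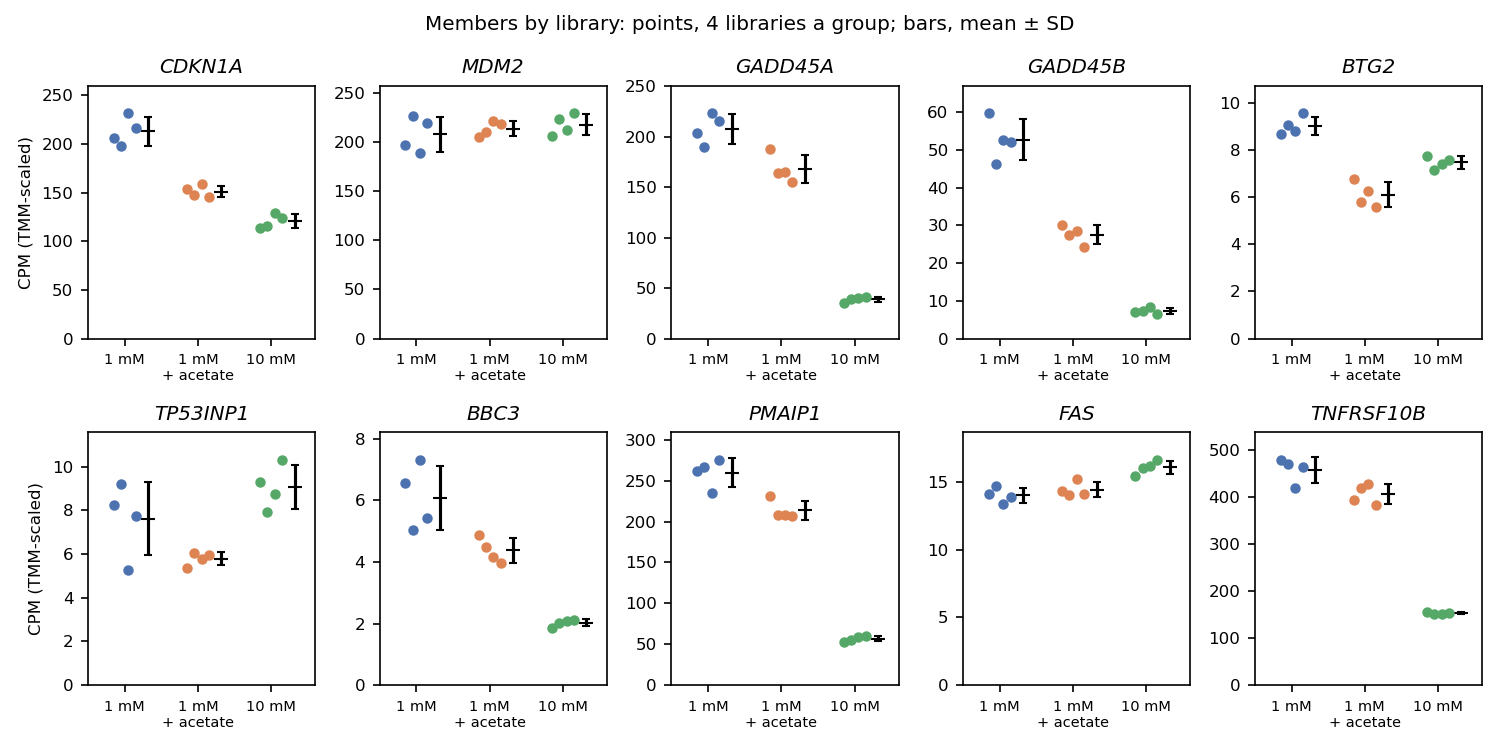
TMM-scaled CPM (vertical axis, from 0) of each member in the 12 libraries, with 1 point per library and the mean ± SD beside each group. GADD45A, GADD45B, BBC3, PMAIP1 and TNFRSF10B are far lower at 10 mM glucose, where GADD45A has 35.3 to 40.7 CPM against 189 to 223 CPM at 1 mM, while the MDM2 groups overlap throughout.

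CDKN1A encodes p21, the inhibitor of cyclin-dependent kinases through which p53 stops the cell cycle. Its level was 206, 198, 232 and 217 CPM in 1 mM replicates 1 to 4. With acetate it was 153, 148, 158 and 145 CPM. At 10 mM glucose it was 114, 116, 129 and 124 CPM. The 3 groups did not overlap, and their order was 1 mM, acetate, 10 mM from high to low. Group means were 213 ± 14.7, 151 ± 5.95 and 121 ± 7.22 CPM (SD, n = 4 each). The log2 fold change was −0.82 ± 0.06 (SE) for glucose (edgeR adjusted p = 2.2e-08) and −0.50 ± 0.06 for acetate (edgeR adjusted p = 1.5e-04). Both calls and directions held in all 23 alternatives. For glucose 1359 of the 14416 tested genes had a lower fold change than CDKN1A, and for acetate 435 had. The file lists 2 transcripts of the gene, and the lower one had 99.8% of the reads of the other, so they could not be told apart.

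GADD45A and GADD45B are small stress proteins that bind cell-cycle and kinase partners, GADD45A known as a target of p53 and of ATF4, GADD45B as one of NF-kB and TGF-beta signalling. GADD45A had 204, 189, 223 and 215 CPM at 1 mM glucose. With acetate it had 188, 164, 165 and 155 CPM. At 10 mM it had 35.3, 39.1, 39.8 and 40.7 CPM. All libraries at 10 mM lay far below the other 8, and those with acetate lay just below those without. The log2 fold change was −2.43 ± 0.08 for glucose (SE, edgeR adjusted p = 1.8e-12) and −0.31 ± 0.07 for acetate (edgeR adjusted p = 0.0102).

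For GADD45B the 1 mM libraries had 59.8, 46.4, 52.6 and 52.1 CPM. The acetate libraries had 30.1, 27.4, 28.5 and 24.2 CPM. The 10 mM libraries had 6.93, 7.22, 8.38 and 6.62 CPM. The 3 groups stood well apart, with means of 52.7 ± 5.51 CPM at 1 mM, 27.5 ± 2.49 CPM with acetate and 7.29 ± 0.77 CPM at 10 mM (SD, n = 4). Among the members GADD45B had the lowest fold change in both comparisons with 1 mM glucose, a log2 fold change of −2.85 ± 0.10 for glucose (SE, edgeR adjusted p = 5.4e-12) and −0.94 ± 0.09 for acetate (edgeR adjusted p = 2.2e-05). Only 114 of the tested genes had a lower fold change for glucose and only 90 for acetate. Its relative GADD45G did not pass the filter on low counts, with a mean of 0.161 CPM at 1 mM.

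BTG2 is an antiproliferative protein that promotes removal of messenger RNA tails. At 1 mM glucose its libraries had 8.71, 9.08, 8.81 and 9.59 CPM. With acetate they had 6.80, 5.80, 6.28 and 5.60 CPM. At 10 mM they had 7.78, 7.15, 7.40 and 7.60 CPM. The order thus differed from that of CDKN1A: BTG2 was lowest with acetate and intermediate at 10 mM glucose, and no groups overlapped. Acetate lowered it by 0.56 ± 0.08 on the log2 scale (SE, edgeR adjusted p = 3.4e-04), while the glucose difference was −0.27 ± 0.08 (edgeR adjusted p = 0.005). The glucose call was lost with library totals (−0.13, edgeR adjusted p = 0.143), over its alternatives 0.0028 to 0.143.

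Genes of cell death came next. BBC3 encodes PUMA and PMAIP1 encodes NOXA, BH3-only proteins that neutralise the survival proteins of the BCL2 family. PMAIP1 had 261, 267, 235 and 276 CPM at 1 mM glucose. With acetate it had 231, 208, 208 and 207 CPM. At 10 mM it had 52.9, 54.7, 58.7 and 59.7 CPM. The 10 mM libraries lay about as far below the rest as those of GADD45A, and the acetate libraries lay just under the lowest at 1 mM. Its log2 fold change was −2.20 ± 0.07 for glucose (SE, edgeR adjusted p = 1.3e-12) and −0.28 ± 0.06 for acetate (edgeR adjusted p = 0.0084). The level of BBC3 was much lower, with 6.56, 5.05, 7.33 and 5.42 CPM at 1 mM glucose. Acetate libraries had 4.88, 4.50, 4.16 and 3.97 CPM, and 10 mM libraries had 1.86, 2.03, 2.08 and 2.11 CPM. The groups did not overlap, although the highest library with acetate came close to the lowest without. BBC3 changed by −1.59 ± 0.13 with glucose (SE, edgeR adjusted p = 6.1e-08) and by −0.48 ± 0.12 with acetate (edgeR adjusted p = 0.0152). The acetate call ended without 1 mM replicate 1 (0.0504), without acetate replicate 4 (0.0554) or in a fit of the 8 libraries alone (0.0571), and p ran from 0.0015 to 0.0571 over its alternatives.

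TNFRSF10B encodes DR5, a receptor for the death ligand TRAIL that CHOP is known to induce as well as p53. It was the most abundant member by reads, with 479, 471, 418 and 463 CPM at 1 mM glucose. With acetate it had 393, 420, 427 and 383 CPM. At 10 mM it had 156, 152, 152 and 152 CPM. The 10 mM libraries were tightly grouped and far below the rest, whereas the libraries with and without acetate overlapped. The log2 fold change was −1.58 ± 0.06 for glucose (SE, edgeR adjusted p = 7.4e-12). The acetate difference of −0.17 ± 0.05 was close to the threshold (edgeR adjusted p = 0.0486). In 15 of 23 alternatives that call was lost, among them leaving out any one of 11 libraries, all but 1 mM replicate 3. It was also lost with library totals (0.107), with no filter (0.0752), with the replicate block (0.0817) and in a fit of the 8 libraries alone (0.164), and the adjusted p ran from 0.0024 to 0.164 over its alternatives.

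FAS, the receptor of FAS ligand, did not move with TNFRSF10B. It had 14.1, 14.7, 13.4 and 13.9 CPM at 1 mM glucose. With acetate it had 14.4, 14.0, 15.3 and 14.1 CPM. At 10 mM it had 15.4, 16.04, 16.2 and 16.7 CPM. The 10 mM libraries were a little above the others and the remaining groups overlapped. The log2 fold change was 0.20 ± 0.06 for glucose (SE, edgeR adjusted p = 0.00703). For acetate it was 0.04, with a 95% interval of −0.08 to 0.17 (edgeR adjusted p = 0.667). An antisense gene, FAS-AS1, had 2 to 11 reads per library against 340 to 458 for FAS. Whether counting used strand is not stated, and reads from an overlap could not be told apart.

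TP53INP1 is a nuclear protein that helps p53 induce death genes and also serves autophagy. Its libraries had 8.27, 9.20, 5.26 and 7.75 CPM at 1 mM glucose. With acetate they had 5.36, 6.07, 5.79 and 5.97 CPM. At 10 mM they had 9.33, 7.91, 8.75 and 10.3 CPM. At 1 mM, replicate 3 lay well below the other replicates and just below the lowest acetate library. The glucose difference of 0.25 ± 0.13 (SE, 95% interval −0.03 to 0.54) was not called (edgeR adjusted p = 0.108), nor was the acetate difference of −0.39 ± 0.14 (edgeR adjusted p = 0.0804). Without 1 mM replicate 3 the acetate difference was −0.54 and was called (edgeR adjusted p = 0.0026), and without that library and acetate replicate 1 it was −0.50 (0.0017). It was called in 5 of 23 alternatives, with adjusted p from 0.0017 to 0.186. Without 1 mM replicate 2 the glucose difference was 0.36 and was called (edgeR adjusted p = 0.0305), and with library totals it was 0.40 (0.0166). Without 1 mM replicate 3 it was 0.11 (0.327), as it was without that library and acetate replicate 1 (0.292). The transcript is 5631 bases long, the longest among the members after MDM2, and 1 mM replicate 3 is a library whose deviations fell with length. With the length and GC trend of each library removed, the acetate difference was −0.45 and was called (edgeR adjusted p = 0.0055). The glucose difference was then 0.19 and not called (0.106). The part of length in the value of 1 mM replicate 3 was not tested.

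MDM2, the ligase that marks p53 for degradation and whose inner promoter is printed above, showed no called difference in any comparison. Counts were given for 1 transcript of the gene, so RNA from its inner and its outer starts was not told apart. MDM2 had 198, 227, 189 and 219 CPM at 1 mM glucose. With acetate it had 205, 210, 222 and 218 CPM. At 10 mM it had 206, 224, 212 and 230 CPM. All 3 groups overlapped. The log2 fold change was 0.07 for glucose, with a 95% interval of −0.07 to 0.20 (edgeR adjusted p = 0.36), and 0.04 for acetate, with an interval of −0.10 to 0.17 (edgeR adjusted p = 0.731). The sign depended on the processing. With library totals MDM2 was called higher at 10 mM glucose (0.21, edgeR adjusted p = 0.0091), and with the length and GC trend of each library removed it was −0.13 (edgeR adjusted p = 0.209).

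**Figure D2:**
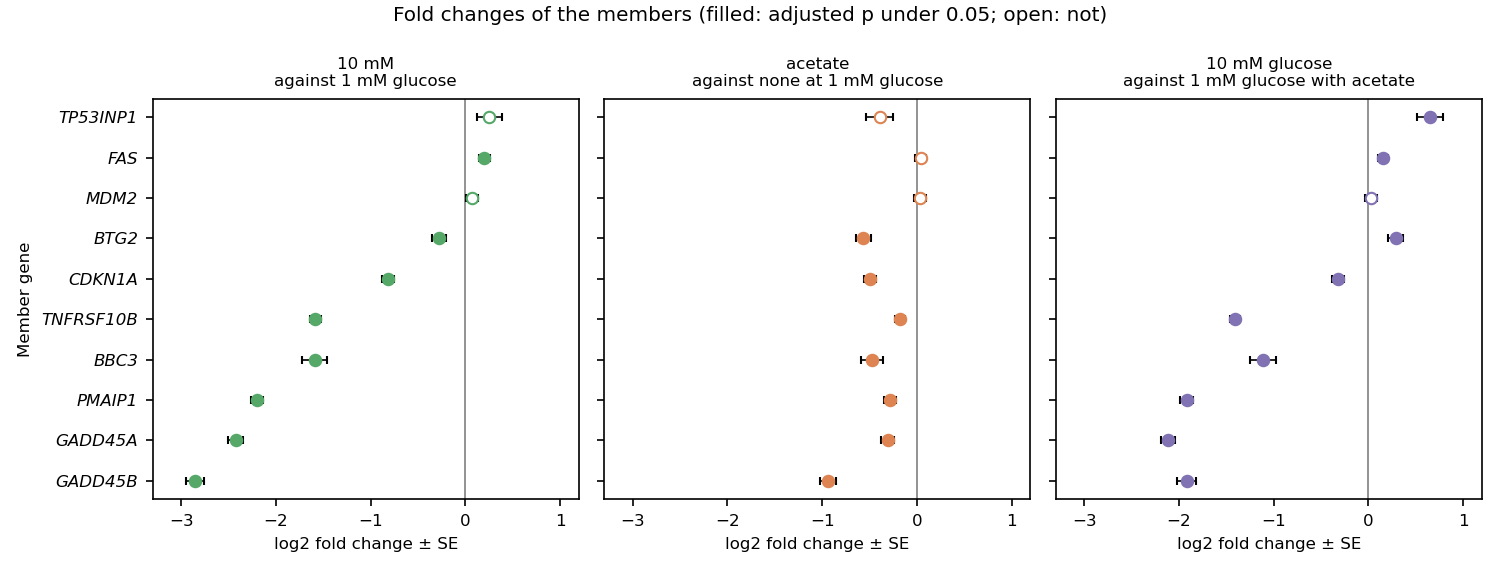
Log2 fold change ± SE of each member in the 3 comparisons, ordered by the glucose comparison, with filled points where the edgeR adjusted p was under 0.05. Glucose spread the members from −2.85 (GADD45B) to 0.25 (TP53INP1), whereas acetate kept them between −0.94 and 0.04.

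The comparison of 10 mM glucose with 1 mM glucose plus acetate is also the test of whether the glucose and acetate changes differ. In it 9 of 10 members were called, against 62.8% of all genes, with 6 lower (31.8% of all genes) and 3 higher (31%) at 10 mM. The groups did not overlap for the same 9 genes, against 61% of all genes, 30.1% lower and 30.8% higher. At least 2-fold lower were 5 members, against 5.51% of all genes. GADD45A had −2.12 ± 0.07, PMAIP1 −1.92 ± 0.07, GADD45B −1.92 ± 0.10, TNFRSF10B −1.41 ± 0.06 and BBC3 −1.11 ± 0.13 (log2 fold change, SE), with edgeR adjusted p from 7.3e-12 for PMAIP1 to 4.9e-06 for BBC3. In each of these 5 genes that difference was larger than the acetate change given above, though the acetate libraries enter both values and the sizes were not tested against each other. CDKN1A had −0.32 ± 0.06 (edgeR adjusted p = 3.3e-04), beside its acetate change of −0.50, and the 95% intervals of these values, −0.45 to −0.19 and −0.63 to −0.37, overlap. BTG2 was higher at 10 mM than with acetate by 0.29 ± 0.08 (edgeR adjusted p = 0.0047) and TP53INP1 by 0.65 ± 0.14 (edgeR adjusted p = 8.7e-04). Neither BTG2 nor TP53INP1 had overlapping groups in this comparison. FAS was higher by 0.16 ± 0.06 (edgeR adjusted p = 0.0284), a call that ended in 6 of 23 alternatives. These were the fit with no filter (0.0672) and those without acetate replicate 2 (0.0743) or 4 (0.0664) or without 10 mM replicate 2 (0.0543), 3 (0.0593) or 4 (0.0792), over its alternatives 1.5e-04 to 0.0792. MDM2 had 0.03 (95% interval −0.11 to 0.16, edgeR adjusted p = 0.712). With library totals the share of all calls that were higher went from 49.4% to 60.8%, and the members' count was again 3 higher and 6 lower.

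Members could be compared with one another only per length of transcript, taking lengths from GENCODE 29, which may not match the models the authors counted. At 1 mM glucose GADD45A had 139 ± 9.87 CPM per kb and PMAIP1 133 ± 8.93, which did not differ beyond their spread (SD, n = 4). TNFRSF10B followed with 110 ± 6.6 and CDKN1A with 97.8 ± 6.73 CPM per kb. GADD45B had 38.4 ± 4.01, MDM2 16.5 ± 1.4 and FAS 5.47 ± 0.209 CPM per kb. BTG2 (3.34 ± 0.144) and BBC3 (3.33 ± 0.572) were alike within their spread, and TP53INP1 was lowest with 1.35 ± 0.298 CPM per kb. At 10 mM glucose the order at the top was CDKN1A (55.4 ± 3.31), TNFRSF10B (36.9 ± 0.505), PMAIP1 (29 ± 1.65) and GADD45A (25.9 ± 1.57 CPM per kb). With acetate GADD45A (112 ± 9.52) and PMAIP1 (110 ± 6.05) were again highest and within their spread, with TNFRSF10B at 97.8 ± 5.06 and CDKN1A at 69.3 ± 2.73 CPM per kb.

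**Figure D3:**
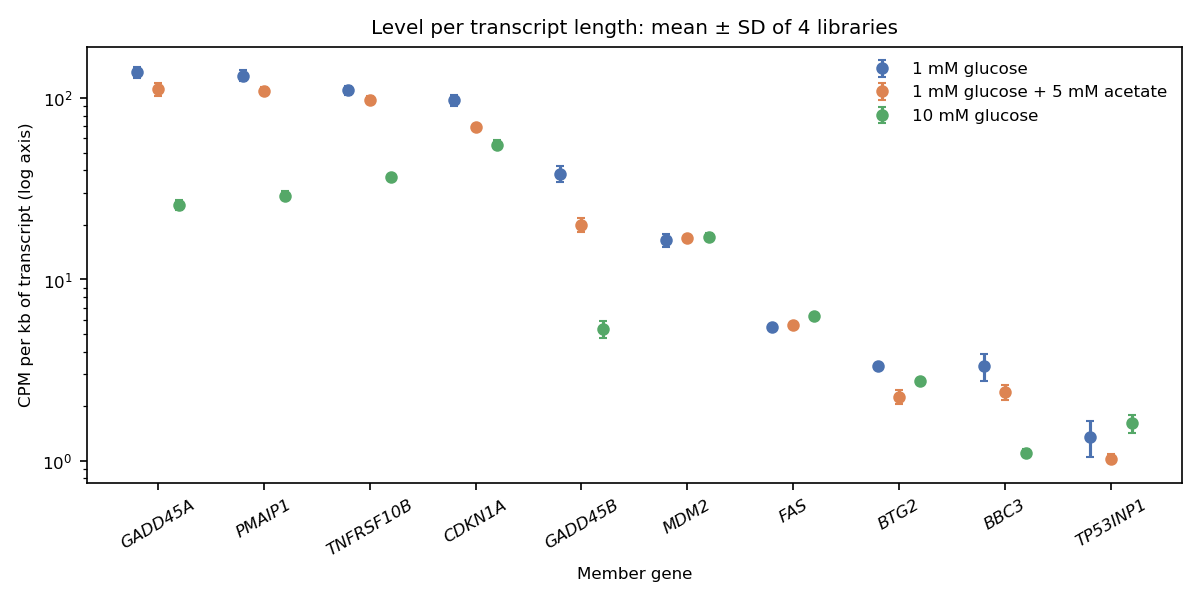
CPM per kb of transcript (log axis) for each member, mean ± SD of 4 libraries, in the 3 groups. CDKN1A ranks below GADD45A, PMAIP1 and TNFRSF10B at 1 mM glucose with 97.8 CPM per kb and above them at 10 mM with 55.4, while GADD45A goes from 139 to 25.9.

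Most libraries stood at the edge of their group for several members, and the pair that fell most with transcript length is described because it was left out in 1 fit. In 1 mM replicate 3, MDM2, TP53INP1, PMAIP1, FAS and TNFRSF10B had the lowest value of the 4 replicates, and CDKN1A, GADD45A and BBC3 the highest. In acetate replicate 1, MDM2 and TP53INP1 were lowest and GADD45A, GADD45B, BTG2, BBC3 and PMAIP1 highest. Acetate replicate 4 was lowest for 7 members, and 10 mM replicate 1 was lowest for 6 and highest for 2. Without the pair the count of called members was again 8 for glucose, and it was 8 in place of 7 for acetate. Over all genes the calls then went from 9725 to 10524 for glucose and from 1980 to 3728 for acetate. The part of transcript length in the single values was not tested beyond these fits.

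MDM4, the partner of MDM2, fell with glucose (log2 fold change −0.56 ± 0.06, edgeR adjusted p = 4.8e-07) and had 0.0093 ± 0.05 with acetate (SE, edgeR adjusted p = 0.933). It averaged 129 ± 7.33 CPM at 1 mM, 130 ± 6.1 CPM with acetate and 88 ± 2.96 CPM at 10 mM (SD, n = 4). The checkpoint kinase CHEK1 rose by 0.66 and the p53 relative TP73 by 1.53 with glucose.

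Other known p53 targets did not share one direction. Of 36 listed genes 35 were tested, and for glucose 14 rose, 12 fell and 9 were not called, with a median of 0.01 beside 0.0011 for all genes. Over all genes tested 33.7% were called higher and 33.8% lower for glucose, and 6.65% and 7.09% for acetate. These shares also stand beside the counts of the lists below. Those with the smallest p were the mTORC1 regulator SESN2 (−3.61 ± 0.05), the stress cytokine GDF15 (−5.59 ± 0.14), the kinase PLK3 (−2.0 ± 0.07) and the autophagy gene DRAM1 (−1.64 ± 0.07, SE), all lower at 10 mM. With acetate 6 fell and none rose (median −0.04, all genes 0.0020), led by SESN2 (−0.56 ± 0.05) and PLK3 (−0.63 ± 0.07, SE).

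Other CDK inhibitors and cell-cycle partners of p21 were mostly higher at 10 mM glucose, where CDKN1A was lower. Of 16 tested genes 14 rose and 1 fell (median 0.67). Cyclins CCNA2 (1.30 ± 0.06) and CCNB1 (1.24 ± 0.06), the kinase CDK2 (0.92 ± 0.06) and the replication clamp PCNA (1.19 ± 0.08, SE), which p21 binds, had the smallest p. The related inhibitor CDKN1B, or p27, rose by 0.26 ± 0.05 (SE) with glucose and had 0.0087 with acetate. CDKN2A, CDKN2B and CDKN2C had no reads in any library. Acetate lowered CDKN2D (−0.42) and no other gene of the list was called (median 0.10).

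Close relatives of the members were mixed. Of the 6 tested relatives and partners of GADD45, BTG2 and TP53INP1, 2 rose and 3 fell with glucose (median −0.26): BTG1 by −1.45, TOB1 by −0.38, BTG3 by −0.36 and TP53INP2 by 0.44. Acetate lowered TOB1 (−0.56) as it did BTG2, and no other gene of the list was called (median −0.13). Of 12 tested BCL2 family genes beyond BBC3 and PMAIP1, 2 rose and 6 fell with glucose (median −0.20). The survival genes BCL2L1 (−1.22) and BCL2A1 (−0.77) and the BH3-only gene BID (−0.61) fell, and the BH3-only gene BCL2L11, or BIM, rose by 0.58. With acetate 5 of these 12 fell (median −0.19), including BCL2L1 (−0.45) and BCL2L11 (−0.46). In the death receptor list 13 of 18 genes were tested, and 7 rose and 3 fell with glucose (median 0.16). Among those with the smallest p were the decoy receptors TNFRSF11B (−1.22) and TNFRSF10C (0.72) and the kinase RIPK1 (0.37). The ligands FASLG and TNFSF10 did not pass the filter. Acetate lowered 2 genes of this list and raised 1 (median −0.12), the latter being the initiator caspase CASP8 (0.26).

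Among 23 other transcription factors known to act on these genes, 9 rose and 12 fell with glucose (median −0.17). With acetate 6 fell and none rose (median −0.05). The shares over all genes were 33.7% higher and 33.8% lower for glucose, and 6.65% and 7.09% for acetate. ATF3 (−3.81), DDIT3 (−4.48), MYC (−2.66) and KLF4 (−2.26), given as log2 fold changes, had the smallest p for glucose. DDIT3 averaged 761 ± 80.3 CPM at 1 mM, 774 ± 102 CPM with acetate and 34 ± 1.11 CPM at 10 mM (SD, n = 4), with a log2 fold change of 0.02 ± 0.09 for acetate (SE, edgeR adjusted p = 0.892). ATF3 (−0.74 ± 0.07) and EGR1 (−0.50 ± 0.05, SE) had the smallest p for acetate.

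**Figure D4:**
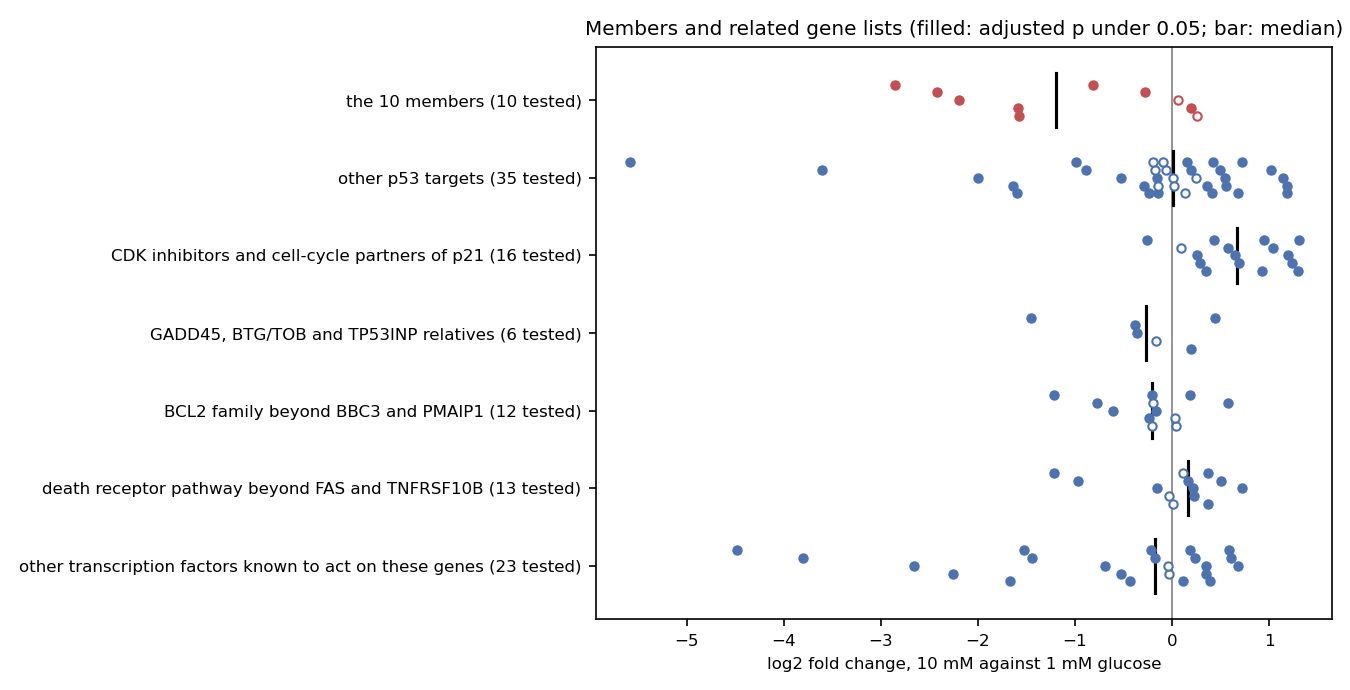
Log2 fold change at 10 mM against 1 mM glucose for the 10 members and for each tested gene of 6 related lists, with filled points where the edgeR adjusted p was under 0.05 and a bar at each median. The median is −1.20 for the members, 0.01 for the other p53 targets and 0.67 for the inhibitors and partners of p21. Members and lists were chosen with earlier results of these data known.

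The genes whose log2 CPM went most closely with CDKN1A over the 12 libraries were sought among 11189 genes that averaged at least 5 CPM. They were LRRC59 (Pearson r = 0.993), TMEM158 (0.989), NGFR (0.984), KRT18 (0.981) and STAC (0.981), given as a description since the libraries share their groups. All 5 were highest at 1 mM, lower with acetate and lowest at 10 mM glucose, as CDKN1A was, an order that the choice by correlation all but fixed. CDKN1A stood at 70.9% of its 1 mM mean with acetate and at 56.7% at 10 mM. LRRC59, a ribosome-binding protein of the endoplasmic reticulum, stood at 80% and 71%, and KRT18, a keratin, at 69.5% and 47%. No other member was among these 5 genes.

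**Figure D5:**
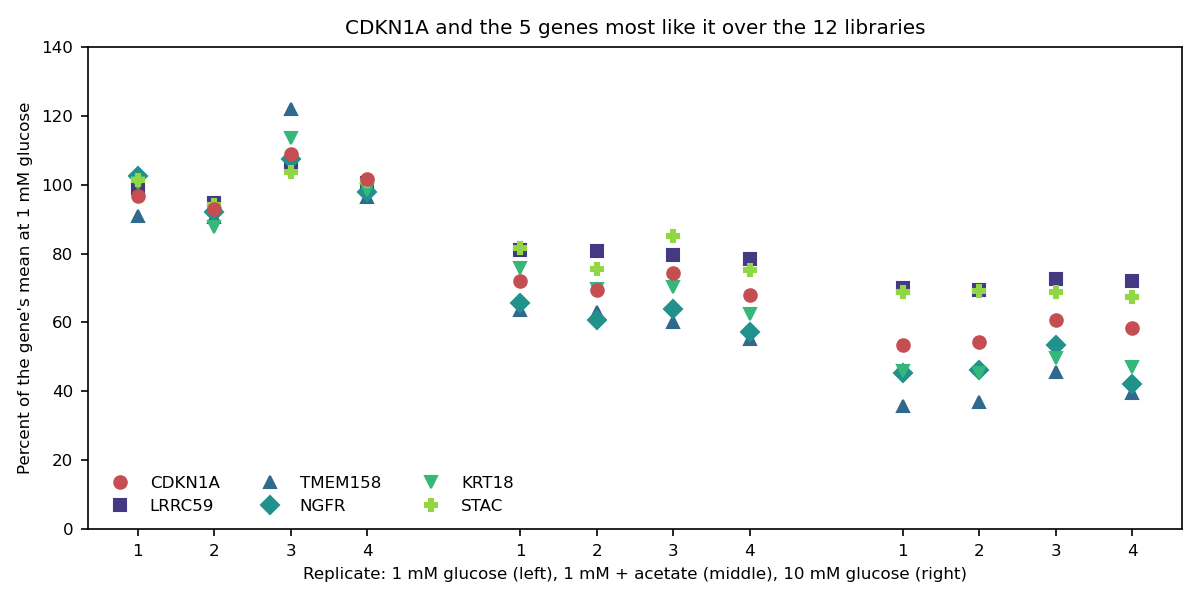
Level of CDKN1A and of the 5 genes most like it in each library, as a percent of the gene's mean at 1 mM glucose. CDKN1A averages 70.9% with acetate and 56.7% at 10 mM, between STAC (79.5% and 68.5%) and TMEM158 (60.5% and 39.4%).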

How the data were processed

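RNA of 12 LN229 libraries was measured by sequencing. The authors deposited raw counts per RefSeq transcript, 34917 per library, as whole numbers without normalization. The build is hg19, per the submitters' processing notes. Aligner, counter and strand setting: not given in the sources used here. Transcripts of one gene shared nearly all reads and were not summed. The transcript that the authors marked stood for 20895 of 22257 genes, and the one with the highest total for the rest, FAS among them.

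After filterByExpr and TMM scaling, 1 model of all 12 libraries with a mean per group was fitted in edgeR 4.0.16 under R 4.3.3, and counts were compared by its quasi-likelihood F test. Benjamini-Hochberg adjustment ran over 14416 genes, and p under 0.05 was called. SE came from the F statistic and 95% intervals from the t distribution. The procedure was tested on simulated data. The labels do not say that replicates were separate cultures, so each p reflects only how these samples vary, possibly for technical reasons. The common biological coefficient of variation was 8.51%, and depth limits precision most for BBC3, with 48 to 188 reads.

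Members and lists were chosen with earlier results of these data known. The 10 members were named in every comparison. Each list gave up to 4 called genes with the smallest p for glucose and up to 2 for acetate, besides MDM4, CDKN1B and DDIT3. Some genes that this rule names, and 1 list, are not reported here. GADD45G, FAS-AS1, FASLG and TNFSF10, the marker genes and the genes counted at 0 were named outside that rule, after their values were seen.

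Alternatives were scaling by library totals or by DESeq2 size factors, the Wald test of DESeq2 1.42.0, no filter, a mean of at least 5 CPM, a fit of just the 8 libraries in question, a block for the replicate number, each library left out, 2 libraries left out together, and the transcript with the highest total. Added after seeing the data was a trend over transcript length and GC content (GENCODE 29, splines with 5 degrees of freedom) removed from each library, with and without the block. For 10 mM against 1 mM glucose, deviations from the group means correlated at 0.232 to 0.574 between same-numbered libraries, and 8 of 8 correlated best with their own number. The labels state no pairing. The correlation with transcript length was also alike in replicate 2 (0.656 at 1 mM, 0.402 at 10 mM) and replicate 3 (−0.679 and −0.412), but not in replicate 4 (0.0207 and −0.124). The part of length in this likeness was not tested.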

Additional observations from a re-analysis of the deposited data

Results flagged for a closer look

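In 2 of 30 groups of 4 libraries, 1 library lay far from the others by Dixon's test, which flags about 1 group in 20 by chance. PMAIP1 had 231 CPM in acetate replicate 1 and 207 to 208 CPM in the other acetate libraries. That library's deviations also went with transcript length (Spearman −0.743), and the part of length in this value was not tested. Without it the acetate difference of PMAIP1 was −0.32 in place of −0.28 on the log2 scale (edgeR adjusted p = 0.0025). TNFRSF10B had 156 CPM in 10 mM replicate 1 and 152 CPM in each of the others. Without that library its glucose difference was −1.59 in place of −1.58.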

How the results depend on the processing

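Of 30 results for single members, 21 kept direction and side of the threshold in every alternative run. BBC3 averaged under 5 CPM, so the filter at that level gave it no value. All calls for CDKN1A, GADD45A, GADD45B and PMAIP1 held. The sign of MDM2 turned in 3 comparisons, without a call. It was −0.13 for glucose, −0.056 and −0.053 for acetate and −0.076 for 10 mM against acetate once the trend over length and GC was taken out, without and with the block. With single libraries left out its acetate value ran from −0.0046 (without 1 mM replicate 3) to 0.082. The number of members called was 8 to 9 for glucose, 5 to 8 for acetate and 8 to 9 for 10 mM against acetate with single libraries left out. With library totals the glucose count was 3 higher and 6 lower in place of 1 and 7. The replicate block gave 8, 6 and 9 members and 9613, 1780 and 8899 genes in the 3 comparisons, and changed no member's call but that of TNFRSF10B for acetate. For the comparisons with acetate, same-numbered libraries correlated at −0.596 to 0.337 and −0.241 to 0.102. There 1 of 8 and 0 of 8 libraries correlated best with their own number. These values do not decide whether the libraries were paired, since deviations of several libraries also went with transcript length. Genes called for acetate numbered 1980, but 1056 with only the 8 libraries compared, 3728 without 1 mM replicate 3 and acetate replicate 1, 3947 after removal of the length and GC trend and 3589 with the block added. Leaving out single libraries gave 1196 to 2956: 1294 without 1 mM replicate 1, 1278 without 1 mM replicate 4, 1318 without acetate replicate 3 and 1196 without acetate replicate 4. The cause was not tested. The same ranges were 9087 to 10169 for glucose and 8421 to 9637 for 10 mM against acetate.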
